A study of Schmidtea mediterranea with 60 samples.

Results

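RNA of planarian tails was compared at 0dpa, the time labelled as day 0 after amputation, between tails given opa1 and drp1 RNAi together and tails given opa1 RNAi with the control dsRNA egfp. The members are the 6 libraries that the labels place in these groups, 3 in each, of 60 libraries in the series. They are called double RNAi tails (labelled opa1;drp1) and opa1 RNAi tails (labelled opa1;egfp) below, and the group with egfp alone, also of 3 libraries, is called control tails (labelled egfp;egfp). Schmidtea mediterranea is a freshwater flatworm that regrows missing body parts from its stem cells, and RNAi lowers a chosen transcript with double-stranded RNA (dsRNA). Egfp codes for a jellyfish protein that planarians lack. All 3 groups were also sampled at 6hpa (6 hours after amputation), 1dpa and 2dpa, which made 36 tail libraries. Another 24 libraries came from whole bodies given drp1, opa1, sod2 or egfp RNAi, sampled at 1dpa or at homo, a label whose sense the sources used here do not give. No tail group had drp1 RNAi without opa1 RNAi, so the effect of drp1 RNAi alone on tails was not measured. Whether the 3 libraries of a group came from different animals is not stated, so the p-values reflect the spread between libraries, which may be technical.

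Mitochondria join and divide continuously. Opa1 is a GTPase that fuses their inner membrane, and Drp1 is a dynamin-related GTPase that constricts and divides them, so the pair of dsRNAs targets both sides of this balance. In other animals loss of Opa1 fragments mitochondria and loss of Drp1 leaves them elongated. The comparison asks how tails with opa1 RNAi differ when drp1 RNAi is added. The files give transcripts as SMED feature IDs and do not pair them with gene names, so the levels of opa1 and drp1, the markers of tail tissue and the roles of the features below are not given here. In bulk RNA, fewer cells of a type and less RNA per cell cannot be told apart.

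Tail values are the authors' scaled signal per feature, without a length correction, and summed to 8345000 to 14470000 per library over all tail libraries. At 0dpa, libraries of 1 group correlated at r = 0.956 to 0.971 across features, which are not independent replicates. The most abundant feature held 11.1 ± 0.599% of the summed signal in double RNAi tails at 0dpa, 7.6 ± 1.3% in opa1 RNAi tails and 13.9 ± 1.23% in control tails (SD, n = 3 each). For double RNAi against opa1 RNAi, an exact two-sided permutation test gave p = 0.1, the smallest that 3 against 3 allows.

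Of the 6 libraries, opa1 RNAi replicate 2 had the fewest features above 0. There were 24075 in it, against 25671 and 25853 in the other opa1 RNAi libraries and 25725 to 26403 in double RNAi tails. Opa1 RNAi replicate 2 was also displaced, though not alone, at features that move early after amputation. In control tails, 2093 features were more than 2-fold higher at 6hpa than at 0dpa. Their median log2 difference from the control mean at 0dpa was -0.09, -0.35 and -0.28 in the double RNAi libraries, and 0.02, 0.32 and 0.1 in the opa1 RNAi libraries, with replicate 2 the highest. Double RNAi replicates 2 and 3 lay about as far from the control mean, on the lower side. Another 1889 features were more than 2-fold lower at 6hpa in control tails. Their medians were -0.02, 0.04 and 0.03 in the double RNAi libraries, and -0.11, -0.35 and -0.14 in the opa1 RNAi libraries, with replicate 2 the lowest. The median over all 20681 features tested lay between -0.03 and 0.02 in each of the 6. All 6 were set against the same control libraries, so these medians place the libraries relative to each other. What displaced these libraries was not tested. Values without opa1 RNAi replicate 2 stand beside the counts and the named features below. Other libraries mattered too. Beside 158 features called with all libraries, 36 were called without opa1 RNAi replicate 2, and 39 and 41 without double RNAi replicate 2 or 3.

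At 0dpa, 158 features, 0.764% of those tested, differed between double RNAi and opa1 RNAi tails at an adjusted p under 0.05 (limma, Benjamini-Hochberg over 20681 features). Of these, 45 (0.218%) were higher in double RNAi tails and 113 (0.546%) were lower. Most differences were small. The median log2 fold change was 0.67 for the higher features and -0.79 for the lower ones, beside 0.03 over all features tested, and 11 higher and 30 lower features passed 2-fold. The libraries of both groups did not overlap in 45 of the 45 higher and 112 of the 113 lower features, where 20.9% of all features tested were also free of overlap. At an unadjusted p under 0.05 there were 3352 features. With the values rescaled without the most abundant feature, 64 were called higher and 243 lower, and on the deposited TPM table, which covers part of the features, 22 and 357. Calls were more frequent among abundant features, reaching 2.96% of those with a mean log2 level of 10 and over and 0.197% of those under 4, although the median size of a called change was 0.59 and 2.37 in these bins. The plot of fold change against level shows both trends.

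**Figure D1:**
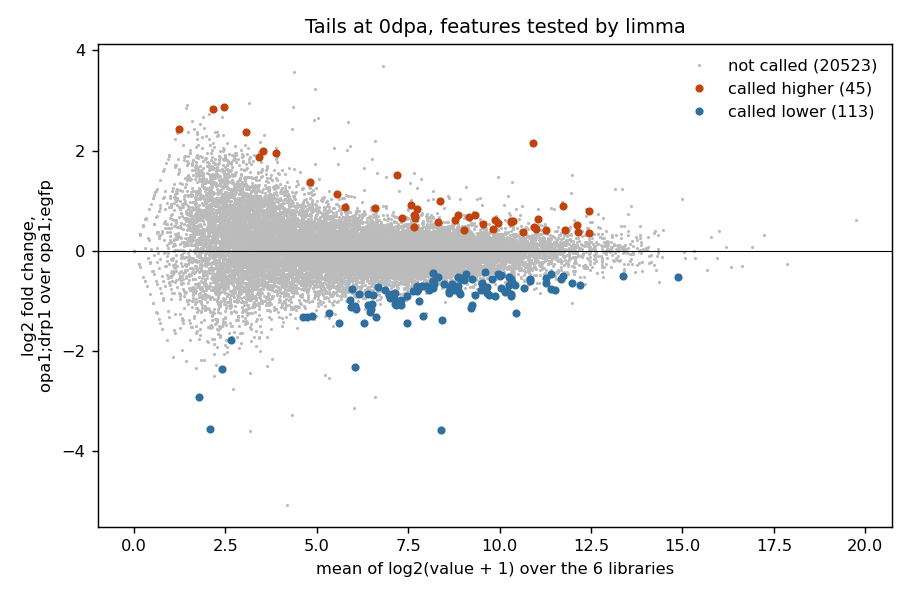
Log2 fold change of double RNAi over opa1 RNAi tails at 0dpa (vertical) against the mean of log2(value + 1) over the 6 libraries (horizontal), 1 point per feature tested. The 45 features called higher and the 113 called lower are coloured. The largest fold changes among them lie mostly at low levels, with exceptions that include a rise at 2.16 and falls at -3.57 and -2.32.

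How many features were called depended on single libraries. Without opa1 RNAi replicate 2 there were 36 calls, 11 higher and 25 lower in double RNAi tails, of which 26 were among the 158. The median log2 fold change without it was 0.59 for the 45 and -0.7 for the 113, although these features had been chosen with that library. All 158 kept their sign. In the 45 higher and 112 lower features without overlap between groups, leaving out a library could not change it. In opa1 RNAi tails, replicate 2 had the highest value for 73 of the 113 lower features and the lowest for 25 of the 45 higher ones. Without double RNAi replicate 2 or replicate 3 there were 39 and 41 calls. Leaving out opa1 RNAi replicate 1 raised the count to 314. Leaving out control replicate 1, which enters only the estimate of spread, raised it to 293.

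**Figure D2:**
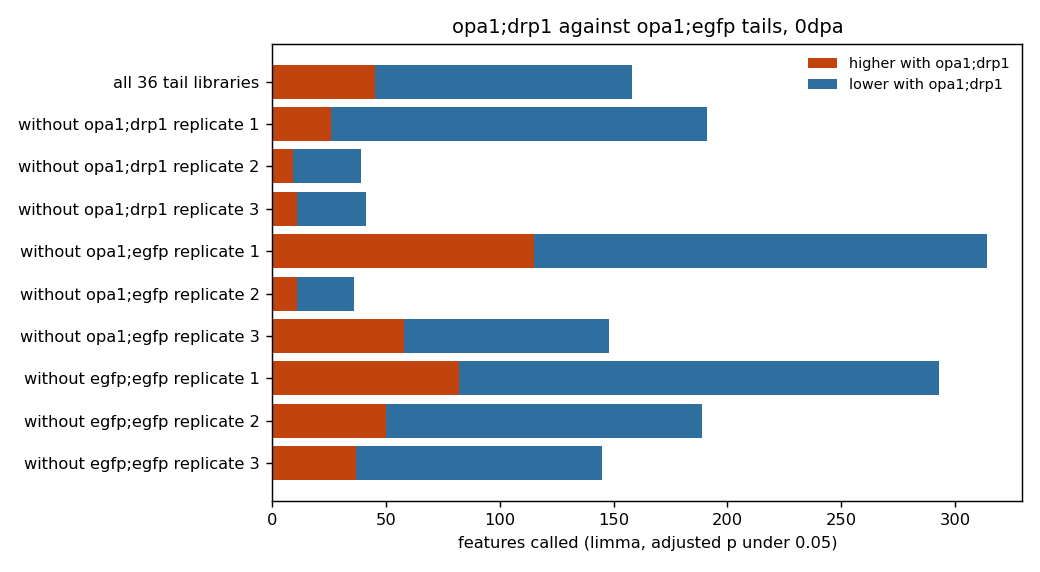
Number of features called in double RNAi against opa1 RNAi tails at 0dpa (horizontal), split by direction, with all 36 tail libraries and with each 0dpa library left out in turn (vertical). The bars run between 36 calls without opa1 RNAi replicate 2 and 314 without opa1 RNAi replicate 1, beside 158 with all libraries.

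SMED30027152 fell the most and had the smallest p. Its scaled value was 129, 69.5 and 98.3 in double RNAi tails, against 1250, 1020 and 1190 in opa1 RNAi tails and 1100, 1150 and 1110 in control tails. All double RNAi libraries lay far below the other 6, which overlapped each other. The log2 fold change against opa1 RNAi was -3.57 (SE, its standard error, 0.17, limma, adjusted p = 2.25e-17), and it was -3.65 without opa1 RNAi replicate 2. The gap was of like size at the other times, with log2 fold changes of -3.49 at 6hpa, -3.3 at 1dpa and -3.26 at 2dpa, and a highest adjusted p of 4.47e-16 by limma. In whole bodies it stood at 6.46 ± 0.458 CPM, counts scaled to the library's total, with drp1 RNAi and 104 ± 9.32 CPM with egfp RNAi at homo (SD, n = 3 each), which edgeR fitted as -4.02 in log2 with an adjusted p of 6.62e-24.

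SMED30006428 was nearly absent from double RNAi tails at 0dpa. It had 0, 0.905 and 0 there, against 12, 19.8 and 10.5 in opa1 RNAi tails and 1.01, 0 and 0 in control tails. All opa1 RNAi libraries lay above the other 6, and the double RNAi and control ranges overlapped. Its log2 fold change against opa1 RNAi was -3.56 (SE 0.68, limma, adjusted p = 0.00579), and the adjusted p was 0.0527 without opa1 RNAi replicate 2. At 6hpa it was listed at 0 in all double RNAi libraries, and at 2.93, 8.94 and 2.95 in opa1 RNAi tails. In whole bodies drp1 RNAi was given without opa1 RNAi and set against egfp RNAi, so the baseline differs from that in tails. There SMED30006428 reached 1.86 ± 0.691 CPM with drp1 RNAi at homo, against 0.0866 ± 0.15 CPM with egfp RNAi (SD, n = 3 each). EdgeR fitted this gap as 4.32 in log2 with an adjusted p of 0.000191. With opa1 RNAi in whole bodies at homo it had 3.2 ± 1.36 CPM (SD, n = 3).

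SMED30015328 was the rise with the smallest p and an abundant feature. It stood at 4320, 3190 and 4830 in double RNAi tails, against 1250, 797 and 749 in opa1 RNAi tails and 3080, 3730 and 1930 in control tails. The double RNAi and opa1 RNAi libraries did not overlap, while the double RNAi and control libraries did. The log2 fold change against opa1 RNAi was 2.16 (SE 0.26, limma, adjusted p = 6.55e-06), and 2.07 without opa1 RNAi replicate 2. At 6hpa and 1dpa the log2 fold changes were 0.32 and 0.79, which did not pass the test (limma, adjusted p = 0.48 and 0.352). At 2dpa it was higher with drp1 RNAi added, at 1100, 1100 and 904 in double RNAi tails and 314, 437 and 312 in opa1 RNAi tails (log2 fold change 1.55, limma, adjusted p = 0.000574). In whole bodies with drp1 RNAi at homo it had 92 ± 5.09 CPM, against 84.1 ± 11.1 CPM with egfp RNAi (SD, n = 3 each), which did not pass the test (edgeR, adjusted p = 0.498).

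SMED30021236 had the largest rise, at low values. It had 18.2, 10.1 and 14.3 in double RNAi tails, against 0, 1 and 3.24 in opa1 RNAi tails and 4.15, 21.8 and 2.67 in control tails. The control libraries spread across both other groups. The log2 fold change against opa1 RNAi was 2.86 (SE 0.61, limma, adjusted p = 0.016), and the adjusted p was 0.0666 without opa1 RNAi replicate 2. At 6hpa, 1dpa and 2dpa the log2 fold changes were 1.88, -0.14 and 0.1, and none passed the test (limma, lowest adjusted p = 0.0616). In whole bodies with drp1 RNAi it was lower at homo, at 2.92 ± 0.389 CPM against 5.19 ± 1.17 CPM with egfp RNAi (SD, n = 3 each, edgeR, adjusted p = 0.00989), and at 1dpa the adjusted p was 0.892. The second largest rise was another low feature, at 8.51 to 14 in double RNAi tails and 0 to 1.65 in opa1 RNAi tails (limma, adjusted p = 0.0411). Its call was lost in 9 of 20 alternative analyses, with an adjusted p of 0.233 without opa1 RNAi replicate 2.

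**Figure D3:**
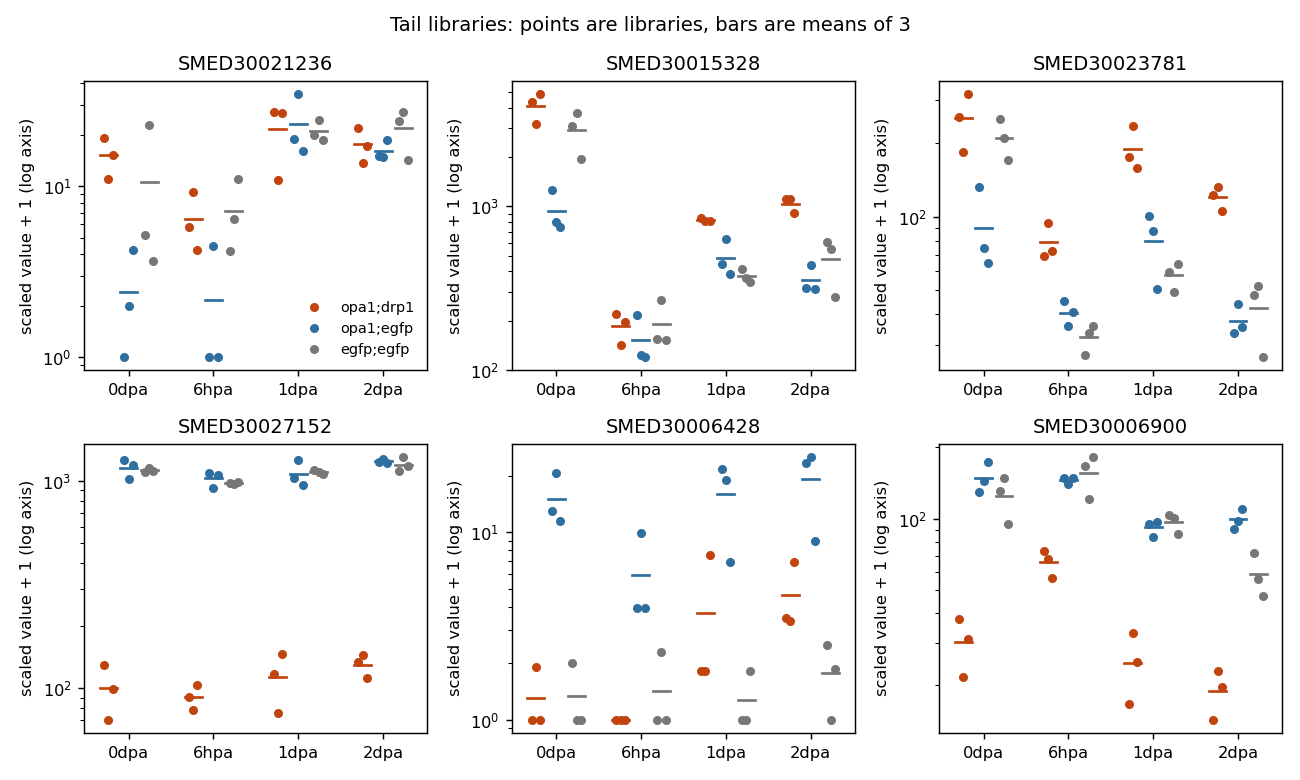
Scaled value plus 1 on a log axis (vertical) of 6 features in the 36 tail libraries, by time (horizontal) and RNAi, with double RNAi left, opa1 RNAi in the middle and control right. Points are libraries and bars are means of 3, and the double RNAi libraries lie below all others of their time for SMED30027152 and SMED30006900.

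The same comparison at later times rests on other libraries, and a minority of the 158 features were called again. At 6hpa limma called 984 features (4.76%, with 2.4% higher and 2.36% lower), at 1dpa 62 (0.3%, with 0.0822% and 0.218%) and at 2dpa 152 (0.735%, with 0.266% and 0.469%). Of the 45 higher features, 6 (13.3%), 4 (8.89%) and 6 (13.3%) were called higher at 6hpa, 1dpa and 2dpa, and none was called lower. Of the 113 lower features, 15 (13.3%), 13 (11.5%) and 22 (19.5%) were called lower, and 4, 1 and 0 were called higher. The 0dpa list and the later calls were taken again without 1 library of the 6. In order of time, the lowest counts were then 1 (double RNAi replicate 2), 2 (opa1 RNAi replicate 3) and 4 (opa1 RNAi replicate 2) higher features. For lower features they were 9 (opa1 RNAi replicate 3), 6 (double RNAi replicate 2) and 10 (double RNAi replicate 3). The 0dpa lists were shorter too, at 148 and 36 features without opa1 RNAi replicate 3 or 2, and 39 and 41 without double RNAi replicate 2 or 3. These lowest counts are therefore not shares of the 45 and the 113. The medians of the 45 were 0.06, 0 and 0.15, and those of the 113 were 0.13, 0.06 and -0.31, beside 0.06, 0.03 and 0.05 over all features tested. At 2dpa 103 of the 113 lay below 0. The share of all calls that were higher moved with scaling, at 6hpa to 1.99% on the TPM table beside 50.4%, and at 2dpa to 12.9% with TMM scaling beside 36.2%. In all, 35 of the 45 and 87 of the 113 had the same call at no later time. Of the 25 features called lower without opa1 RNAi replicate 2, 14, 10 and 18 were called lower at 6hpa, 1dpa and 2dpa, with medians of -0.65, -0.65 and -1.06. Of the 11 called higher without it, 3, 2 and 4 were called higher, with medians of 0.32, 0.64 and 0.8.

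**Figure D4:**
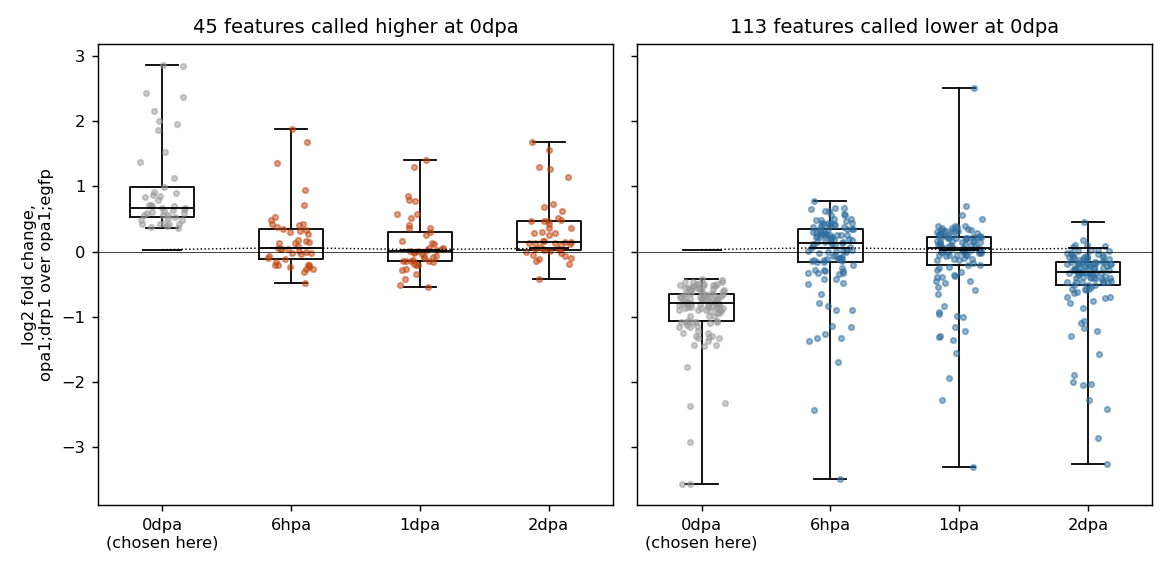
Log2 fold change of double RNAi over opa1 RNAi tails (vertical) by time (horizontal) for the 45 features called higher and the 113 called lower at 0dpa. Boxes span the quartiles with the median, whiskers the range, and the dotted line is the median of all features tested. The 0dpa values chose the features, and the later medians lie between 0 and 0.15 for the 45 and between -0.31 and 0.13 for the 113.

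A small set was called in the same direction at all 4 times, 2 higher and 9 lower features. SMED30006900 and SMED30023781 belong to it and were chosen after their values were seen. SMED30006900 stood at 36.8, 20.7 and 30.3 in double RNAi tails at 0dpa, against 129, 143 and 172 in opa1 RNAi tails and 130, 148 and 94.3 in control tails, with no overlap between double RNAi and the rest. Its log2 fold changes against opa1 RNAi were -2.32, -1.16, -1.94 and -2.42 in order of time (limma, highest adjusted p = 0.00462), with -2.34 at 0dpa without opa1 RNAi replicate 2. In whole bodies it was lower with drp1 RNAi too, at 4.64 ± 0.699 CPM against 7.84 ± 0.831 CPM with egfp RNAi at homo (SD, n = 3 each, edgeR, adjusted p = 0.00532). SMED30023781 stood at 256, 183 and 317 in double RNAi tails at 0dpa, against 131, 73.6 and 63.7 in opa1 RNAi tails and 250, 210 and 170 in control tails. The double RNAi range lay above that of opa1 RNAi and overlapped that of control. Its log2 fold changes were 1.52, 0.95, 1.29 and 1.68 (limma, highest adjusted p = 0.0353), and the call at 6hpa was lost in 9 of 16 alternative analyses. In whole bodies SMED30023781 had 9.22 ± 2.93 CPM with drp1 RNAi and 8 ± 0.609 CPM with egfp RNAi at homo. At 1dpa these were 4.98 ± 1.89 and 7.4 ± 1.39 CPM, lower on average with drp1 RNAi (SD, n = 3 each). The drp1 and egfp RNAi libraries overlapped in SMED30023781 at both times. In tails without opa1 RNAi replicate 2, its 0dpa log2 fold change was 1.42 (limma, adjusted p = 0.0304). Without that library 1 higher and 10 lower features were called at all 4 times, and without opa1 RNAi replicate 3, double RNAi replicate 2 or double RNAi replicate 3 there were 1 and 5 each. Over 19 alternative analyses the set ran from 0 to 3 higher and from 1 to 12 lower features.

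The change of the effect with time was tested as an interaction. Between 0dpa and 6hpa it differed for 1541 features (7.45%), between 0dpa and 1dpa for 86 (0.416%), and between 0dpa and 2dpa for 0, where 1203 features had an unadjusted p under 0.05 (limma). Among the 158 features, 91 changed by 6hpa and 32 by 1dpa. These counts share the 0dpa libraries with the choice of the features, so they are a description. Without opa1 RNAi replicate 2 the totals over all features were 350 and 7, with 9 of the 45 and 36 of the 113 among the first and 2 of each among the second. SMED30009611, chosen after its values were seen, was 231, 310 and 251 in double RNAi tails at 0dpa, against 192, 141 and 157 in opa1 RNAi tails. At 1dpa it was 674, 736 and 769 in double RNAi tails, against 1050, 954 and 1090 in opa1 RNAi tails. The order of the groups was opposite at these times, without overlap at either, and the change was -1.2 in log2 (limma, adjusted p = 0.00279). At 1dpa by itself the log2 fold change of SMED30009611 was -0.505, which limma did not call.

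At 0dpa each group was also set against control tails, in comparisons that share libraries with the main one and with each other. Limma called 75 features (0.363%) in double RNAi against control tails and 51 (0.247%) in opa1 RNAi against control tails. The 45 higher features had a median log2 fold change of 0.33 in double RNAi against control and -0.32 in opa1 RNAi against control. The 113 lower features had medians of -0.51 and 0.27 in the same order. Without opa1 RNAi replicate 2 the medians in opa1 RNAi against control were -0.31 for the 45 and 0.18 for the 113, and -1.17 and 0.33 for the 11 and the 25 features called without it. The features were chosen for the gap between the groups set against control, so the opposite signs are a description.

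Many of the 158 features also moved after amputation in control tails, a comparison added after values were seen that shares no library with the groups compared. Of the 113 lower features, 83 (73.5%) were called higher at 6hpa than at 0dpa in control tails, beside 19.7% of all features tested. At 1dpa 43 (38.1%) were called lower than at 0dpa, beside 6.88%, and at 2dpa 48 (42.5%) were, beside 8.33%, while 6 (5.31%) were called higher, beside 9.7%. Of the 45 higher features, 26 (57.8%) were called lower at 6hpa, beside 23.5%, and 12 (26.7%) were called higher at 1dpa, beside 6.88%. The median log2 change by 6hpa was 0.96 for the 113 and -0.56 for the 45, beside -0.15 over all features. Shares over all features, here and for whole bodies below, were not matched for level. The median log2 level over the 6 libraries was 8.42 for the 113 and 8.86 for the 45, beside 6.24 for all features tested. In the opposite direction, 3 (2.65%) of the 113 were called lower at 6hpa and 5 (4.42%) higher at 1dpa, and of the 45, 2 (4.44%) were called higher at 6hpa and 4 (8.89%) lower at 1dpa. By 2dpa a rise was called for 10 (22.2%) of the 45 and a fall for 8 (17.8%). Without opa1 RNAi replicate 2 these shares differed. Of the 25 features called lower without it, 6 (24%) were called higher and 6 (24%) lower at 6hpa in control tails, and 2 (8%) were called higher and 3 (12%) lower at 1dpa. Of the 11 called higher without it, 0 were called higher and 4 (36.4%) lower at 6hpa, and 1 (9.09%) was called higher and 3 (27.3%) lower at 1dpa. By 2dpa a rise was called for 2 (8%) of the 25 and a fall for 14 (56%), and for 1 (9.09%) and 6 (54.5%) of the 11. Without double RNAi replicate 2 or replicate 3, 15 and 17 of the 30 lower features called were higher at 6hpa in control tails.

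**Figure D5:**
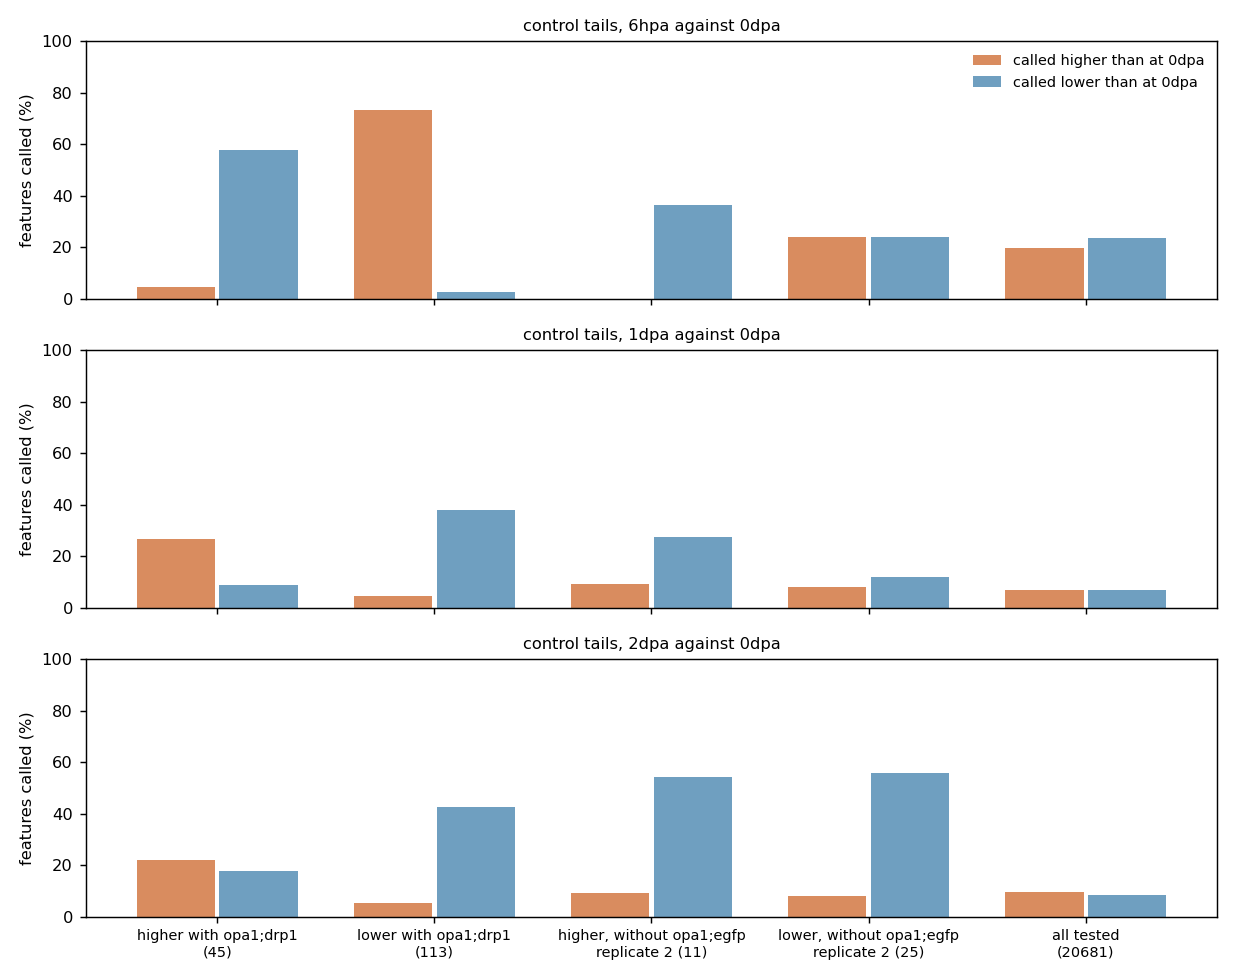
Share of features in percent (vertical) called higher or lower at 6hpa, 1dpa and 2dpa than at 0dpa in control tails, for the features called at 0dpa with all libraries, for those called without opa1 RNAi replicate 2, and for all features tested (horizontal, with the number of features). At 6hpa the share called higher is 73.5% for the 113 lower features, 24% for the 25 called without that library and 19.7% for all.

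Whole bodies gave drp1 RNAi without opa1 RNAi, in other libraries and tissue. At homo edgeR called 5555 features (24.3%, with 13.7% higher and 10.5% lower with drp1 RNAi), and at 1dpa 1645 (7.19%, with 3.83% higher and 3.36% lower). Of the 45 features higher in double RNAi tails, 19 were higher and 7 lower with drp1 RNAi at homo, and 5 and 10 at 1dpa. Of the 113 lower features 112 were tested there, of which 38 were higher and 27 lower at homo, and 22 and 7 at 1dpa. At homo 42.2% of the 45 were thus called in their tail direction and 15.6% in the opposite one, and of the 112, 24.1% and 33.9%. At 1dpa these shares were 11.1% and 22.2% of the 45, and 6.25% and 19.6% of the 112. The medians of both sets at both times lay between -0.03 and 0.18. Of the 25 features called lower without opa1 RNAi replicate 2, 6 were higher and 11 lower at homo, and 5 and 9 at 1dpa. Of the 11 called higher without it, 3 were higher and 1 lower at homo, and 1 and 4 at 1dpa.

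With opa1 RNAi in whole bodies, a comparison added after values were seen, the features lower in double RNAi tails were more often called higher than lower. At homo 55 of 112 (49.1%) were higher than with egfp RNAi and 16 (14.3%) lower, beside 19.2% and 15.6% of all 22889 features tested (edgeR). At 1dpa 32 (28.6%) were higher and 9 (8.04%) lower, beside 4.57% and 6.64%. Of the 25 called lower without opa1 RNAi replicate 2, 17 (68%) were higher at homo and 13 (52%) at 1dpa, and 0 were lower at either time. SMED30006900 was among those raised, at 14.7 ± 1.63 CPM with opa1 RNAi and 7.84 ± 0.831 CPM with egfp RNAi at homo (SD, n = 3 each, edgeR, adjusted p = 0.000141). Its value was also high with sod2 RNAi at homo, at 13.5 ± 1.73 CPM (SD, n = 3). Of the 45 features higher in double RNAi tails, 17 (37.8%) were higher and 14 (31.1%) lower with opa1 RNAi at homo, and 1 (2.22%) and 14 (31.1%) at 1dpa. Of the 11 called higher without opa1 RNAi replicate 2, 2 were higher and 4 lower at homo, and 1 and 6 at 1dpa. Of the 45, SMED30015328 had 31.4 ± 3.52 CPM with opa1 RNAi and 84.1 ± 11.1 CPM with egfp RNAi at homo (SD, n = 3 each, edgeR, adjusted p = 7.26e-09). With sod2 RNAi at homo it had 43.4 ± 2.48 CPM. At 1dpa it had 19.4 ± 4.15 CPM with opa1 RNAi, 46 ± 11.6 with sod2 RNAi and 44.9 ± 3.4 with egfp RNAi (SD, n = 3 each).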

How the data were processed

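RNA was sequenced from 36 tail and 24 whole-body libraries, 3 per group as the labels give them. Libraries were made from total RNA with an NEBNext kit, per the labels' protocols. The tail table holds signal, deposited by the authors after scaling by a method not given in the sources used here. Whole reads could not be recovered from it. The whole-body table holds estimated counts that the authors deposited, from kallisto by the table's name, with 10610000 to 14330000 per library. The TPM values the authors deposited for tails cover 27444 of 36035 features and served as an alternative.

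Tails were tested with limma 3.58.1 (mean-dependent prior) on log2(value + 1), for the 20681 features that reached 10 in 3 or more libraries, with 12 group means. Fold changes on this scale understate those of low features. Whole bodies were tested with edgeR 4.0.16 (TMM, quasi-likelihood) on counts rounded to whole numbers, for 22889 features and 8 group means, with DESeq2 1.42.0 as an alternative. P-values were adjusted by Benjamini-Hochberg, and a feature was called under 0.05. Both fits were tested on simulated data.

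Named features were the 2 largest rises and falls and the rise and fall with the smallest p, among called features averaging 1 or more in log2 and with no overlap between groups. Lists of marker and mitochondrial genes were planned, and 0 IDs could be matched to them. The members, lists and comparisons were chosen with earlier results of these data known. Alternatives changed the pseudocount, filter, scaling, table, block and libraries. Fits on fewer libraries were run with 2 filters, the second chosen after the first counts were seen.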

Additional observations from a re-analysis of the deposited data

Results flagged for a closer look

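The effect of adding drp1 RNAi differed between times. The interaction with time was called for 1541 features between 0dpa and 6hpa and for 86 between 0dpa and 1dpa (limma, adjusted p under 0.05). Without opa1 RNAi replicate 2 of 0dpa these counts were 350 and 7, and without opa1 RNAi replicate 1 of 6hpa the first was 325.

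Among features shown here, chosen partly for their change, SMED30015328 had an effect smaller by 6hpa, a change of -1.83 in log2 (limma, adjusted p = 0.00774), which kept its call in all 25 alternative analyses of it. SMED30006900 changed by 1.17, toward a smaller fall (limma, adjusted p = 0.0304), a call lost in 9 of 25. SMED30009611 changed by -0.63 by 6hpa (limma, adjusted p = 0.0429), a call lost in 10 of 25, and by -1.2 by 1dpa, a call kept in all 27.

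SMED30003823 changed by 3.14 by 6hpa (limma, adjusted p = 0.0097) and by 4.86 by 1dpa (limma, adjusted p = 0.00109). At 0dpa it had 0, 3.58 and 1.81 in double RNAi tails, against 8.37, 16.6 and 9.64 in opa1 RNAi tails. At 1dpa it had 8.08, 4.81 and 2.43 in double RNAi tails and was listed at 0 in all opa1 RNAi libraries, so the fitted change depends on the pseudocount and is no bound. On the TPM table both calls were lost, at 0.53 and 0.55.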

How the results depend on the processing

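Of the features named above, SMED30027152, SMED30015328, SMED30006900 and SMED30023781 kept their call at 0dpa in all 23 alternatives. SMED30021236 and SMED30003823 each lost it in 7 of 22, and SMED30009611 in 6 of 23. SMED30006428 lost it in 2 of 22, and the feature with the second largest rise in 9 of 20. None of these changed sign, but leaving out libraries could not change it, as the groups did not overlap in these features. Counts depended on nearly every choice. For double RNAi against opa1 RNAi tails at 0dpa, 158 calls became 68 without a filter, 286 with a filter at 50, 307 rescaled without the most abundant feature and 379 on the TPM table. In fits of the libraries compared, of the 9 libraries at 0dpa and without the 6hpa libraries, there were 55, 67 and 670 calls with the filter over all 36 libraries. With the filter taken again over the libraries of the fit, chosen after the first counts were seen, there were 346, 111 and 682. The share of calls higher in double RNAi was 28.5%, against 5.8% on the TPM table, 20.8% without the most abundant feature, 22.6% with TMM, and 47.8% without the 6hpa libraries. Leaving out 1 library gave 36 to 314.

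At 6hpa, 984 calls became 625 without a filter, 4075 on the TPM table (1.99% higher, with a median over all features of -0.26, beside 50.4% and 0.06), and 8 and 67 in fits of the libraries compared with the first and second filter. Without the most abundant feature 22% of calls were higher. Single libraries left out gave 310 (double RNAi replicate 2), 356 (opa1 RNAi replicate 1) and up to 1610 (opa1 RNAi replicate 2). At 1dpa, 62 became 18 and 35 in fits of the libraries compared, and 96 and 98 without the 6hpa libraries. Without 1 library it was 29 (double RNAi replicate 1), 32 (double RNAi replicate 2), 31 (opa1 RNAi replicate 1) and up to 145 (opa1 RNAi replicate 2). At 2dpa, 152 became 92 on the TPM table, 517 and 691 in fits of the libraries compared, and 288 with either filter without the 6hpa libraries. The share called higher was 36.2%, against 12.9% with TMM and 48.3% without the most abundant feature. Dropping 1 library gave 64 (double RNAi replicate 1, opa1 RNAi replicate 2), 67 (double RNAi replicate 3), 82 (opa1 RNAi replicate 1) and up to 147.

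The change between 0dpa and 6hpa, 1541, became 920 without a filter and 715 and 741 in fits of the libraries compared. With 1 library fewer it was 325 (opa1 RNAi replicate 1 of 6hpa), 350 (opa1 RNAi replicate 2 of 0dpa), 532 (double RNAi replicate 2 of 6hpa), 791 and 812 (double RNAi replicates 3 and 2 of 0dpa) and up to 2523 (opa1 RNAi replicate 2 of 6hpa). That between 0dpa and 1dpa, 86, became 17 without a filter, 168 with a filter at 50, 220 without the most abundant feature, 16 on the TPM table, 14 with either filter in fits of the libraries compared, and 297 and 302 without the 6hpa libraries. Leaving out 1 library gave 7 (opa1 RNAi replicate 2 of 0dpa) to 616 (opa1 RNAi replicate 2 of 1dpa). That between 0dpa and 2dpa, 0, became 4 without a filter, 1 after TMM rescaling, 12 with either filter in fits of the libraries compared, and 10 with either without the 6hpa libraries. Leaving out 1 library gave 0 to 1.

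For double RNAi against control tails, 75 became 46 without a filter, 143 without the most abundant feature, 14 on the TPM table, 32 in the fit of the libraries compared, 15 and 20 at 0dpa only, 161 and 173 without the 6hpa libraries, and 13 to 197 without 1 library. For opa1 RNAi against control tails, 51 became 111 on the TPM table, 18 and 22 in fits of the libraries compared, 24 and 27 at 0dpa only, 97 with either filter without the 6hpa libraries, and 22 to 61 without 1 library. In whole bodies with drp1 RNAi, leaving out 1 library gave 3135 (egfp replicate 3) to 5934 calls at homo and 894 (drp1 replicate 3) to 2125 at 1dpa, with 970 without egfp replicate 2. Causes of these moves were not tested.

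The replicate number was fitted as a block within each time. Deviations of same-numbered double RNAi and opa1 RNAi libraries at 0dpa correlated at 0.003, -0.036 and -0.007. Those of double RNAi and control libraries correlated at 0.061, 0.034 and 0.029, and those of opa1 RNAi and control libraries at -0.076, -0.106 and -0.009. These values show little pairing by number, but they cannot tell whether libraries were prepared together. The block took the change between 0dpa and 1dpa to 24 calls and moved no other count of calls by over 1.5 times.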
